A study of Mus musculus with 6 samples.

Results

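Glycolysis breaks glucose down to pyruvate in the cytosol, and the core enzymes between glucose 6-phosphate and phosphoenolpyruvate are described here in mouse Th17 cultures grown with or without oligomycin. The members were chosen by name: 10 genes from Gpi1 to Eno1, of which 9 have a row among the 10041 rows of the deposited table (Gpi1, Pfkl, Pfkp, Aldoa, Aldoc, Tpi1, Pgk1, Pgam1 and Eno1). Gapdh was not analysed here, because no row of the table carries that name. The 6 RNA-seq libraries comprise 3 from cultures with the vehicle DMSO and 3 from cultures with oligomycin at 2.5 ng/ml, an inhibitor of the mitochondrial ATP synthase. In both groups the starting cells were naive CD4 T cells, kept for 48 h on plate-bound anti-CD3e at 10 µg/ml. The medium held 1 µg/ml of anti-CD28 and the polarizing cytokines, namely 10 ng/ml of IL-23, 2.5 ng/ml of TGFb1 and 20 ng/ml of IL-6. The labels give no strain, age or sex of the mice and do not say whether the 3 libraries of a group came from separate animals. The p-values therefore set the group difference against the spread between these libraries, which may be technical. Sample titles carry numbers shared between the groups, but the value columns cannot be matched to them, so no pairing was modelled. Each value is an FPKM, a count of fragments divided by transcript length and by the mapped fragments of its library, and the number of reads behind it is unknown.

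In this pathway Gpi1 (glucose-6-phosphate isomerase) makes fructose 6-phosphate, phosphofructokinase (Pfkl, Pfkp) commits it to glycolysis, aldolase (Aldoa, Aldoc) splits the hexose, and Tpi1 interconverts the triose phosphates. Gapdh, Pgk1, Pgam1 and Eno1 then carry the trioses to phosphoenolpyruvate, with ATP made at the Pgk1 step. Activated T cells raise glycolysis, and Th17 differentiation is known to draw on it; the transcription factors HIF-1 and Myc are textbook activators of the enzyme genes. Oligomycin stops ATP synthesis by oxidative phosphorylation, which leaves glycolysis as the main other route to ATP.

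The labelled cell type was checked against its markers. On a fixed list of Th17 and CD4 T cell markers 5 of 13 tested genes fell with oligomycin and 0 rose, with a median log2 change of -0.14. Of all tested genes 16.1% were called lower and 14% higher. Il17a and Il17f, the signature cytokine genes of Th17 cells, fell from means of 247 to 12.5 FPKM and from 1470 to 297 FPKM (limma adjusted p = 2.44e-06 and 0.000128). The genes for the receptors Il23r (5.70 to 0.454 FPKM, adjusted p = 0.000507) and Ccr6 (20.6 to 4.23 FPKM, 0.000229) and for the costimulatory receptor Cd28 (147 to 102 FPKM, 0.0422) fell as well. Il23r stood at 0.460, 0.383 and 0.517 FPKM with oligomycin. It therefore met the filter of at least 1 FPKM in at least 3 libraries only through its DMSO values. The T cell genes Cd3d, Cd3e, Cd3g, Cd4 and Lck, among the 8 without a call, had group means between 46.9 and 242 FPKM. The part of these marker changes in the results on the enzymes was not tested. None of the fixed markers of B cells (6), myeloid cells (9), dendritic cells (5), erythroid cells (6) or platelets (4) has a row, in a table where the higher of the group means is at least 1.499 FPKM in every row. The T cell receptor genes Trac, Trbc1 and Trbc2, on the list of 16 T cell markers, have no row either. A missing row therefore does not show that a gene was not expressed or that a cell type was absent. Of the markers of CD8 T cells and NK cells, Cd8b1 ran from 2.41 to 3.30 FPKM over the 6 libraries and Klrd1 from 5.53 to 34.6, without a call for either.

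Messenger RNA for 8 of the 9 measured enzymes was lower in the cultures with oligomycin. The fall spanned the pathway from phosphofructokinase to enolase, and the exception was Gpi1, the isomerase at its entry. The falls ran from 0.95 (Pfkl) to 2.60 (Aldoc) on the scale of log2(FPKM + 1), and none of the 9 rose. All 9 passed the filter on low values, 8 of them with at least 1 FPKM in every library. Aldoc reached 1 FPKM in only 1 oligomycin library and so passed mainly through its DMSO values. In the limma test across all 9986 genes, with Benjamini-Hochberg adjustment and a threshold of 0.05, 16.1% of the genes were called lower and 14% higher. For all 9 members every oligomycin library lay below every DMSO library, which held for 24.3% of all tested genes. The median log2 change of the 9 was -1.11, beside -0.00 over all tested genes. Of the 9 members 6 had at least 100 FPKM in the DMSO mean, and among the 735 genes at that level outside the small RNA rows 33.3% were called lower, with a median log2 change of -0.28. A drop of these transcripts in a bulk library can come from fewer cells that express them or from less RNA per cell, which cannot be told apart here.

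**Figure D1:**
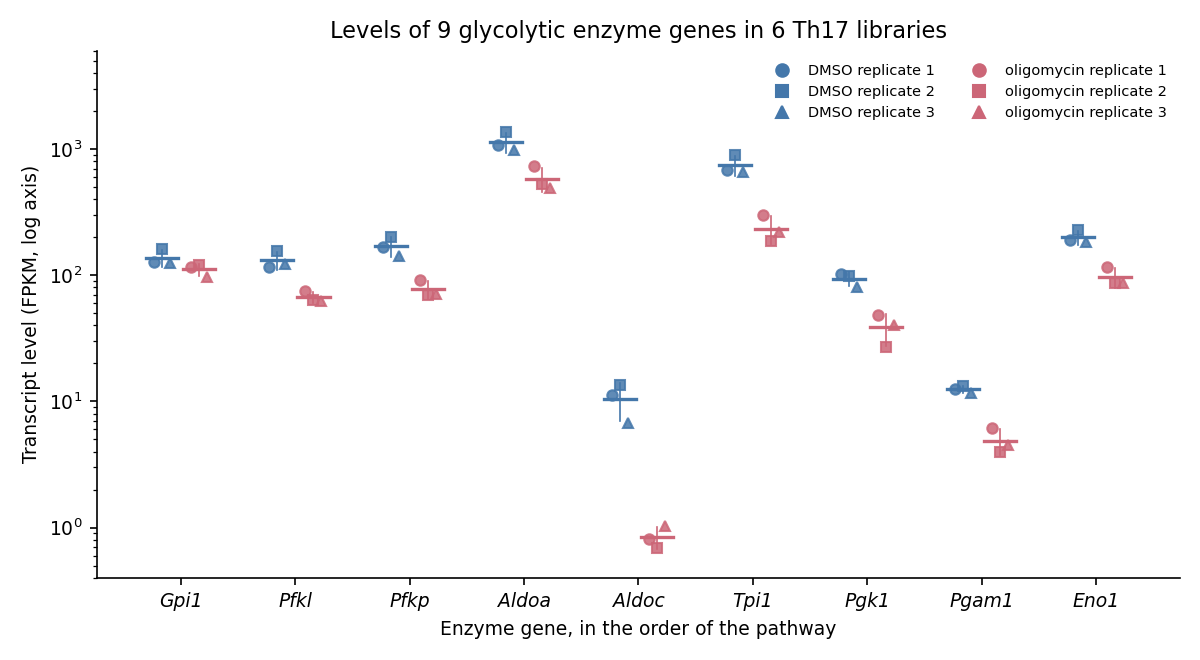
Levels of the 9 enzyme genes in FPKM (log axis), in pathway order; each point is a library, horizontal lines are group means and vertical lines are ± 1 SD (n = 3). The oligomycin points lie below the DMSO points for each gene, with the narrowest gap for Gpi1 (97.2 to 119 against 125 to 161 FPKM) and the widest for Aldoc (0.692 to 1.03 against 6.73 to 13.5 FPKM).

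Because the members moved together, their promoters were searched for the core letters of the site that HIF-1 binds, ACGTG or GCGTG on either strand, in the RefSeq window of 250 bases before to 50 bases after the start (GRCm38.p6). Of the 9 members, 6 (66.7%) held either core, beside 66.3% of 7258 genes with a row in the table, taking 1 window a gene. The members' share was thus near that of expressed genes. The windows were chosen differently: for a member, the start nearest the 5′ end of its row, and for the 7258 genes, the first window listed. The form ACGTG occurred in 2 of 9 members, Pgk1 and Pgam1 (22.2%, beside 27.7%), and the E-box CACGTG, which contains ACGTG and is bound by Myc, in 0 of 9 (beside 11.1%). Gpi1, Aldoa and Tpi1 held neither core in the window searched. Aldoa has 3 RefSeq windows, of which 1 was searched, and the start used for Tpi1 lay 138 bases from the 5′ end of its row. A relation between these letters and the calls was not tested. The upstream 250 bases of 4 members are shown, with core matches in capitals, read 5′ to 3′ on the strand of the gene: Pgk1 and Pgam1 as the holders of ACGTG, Pfkp for its 3 copies of GCGTG upstream of the start, and Gpi1 as the member without a call. In Pgk1, at chrX:106186850-106187099 (plus strand), the matches begin 150 and 131 bases before the start, the second on the opposite strand. In Pgam1, at chr19:41911621-41911870 (plus strand), they begin 175, 114 and 88 bases before it. In Pfkp, at chr13:6648772-6649021 (minus strand), they begin 136, 68 and 23 bases before it, and the Gpi1 stretch lies at chr7:34230337-34230586 (minus strand). A match describes letters only and does not show binding.
Pgk1: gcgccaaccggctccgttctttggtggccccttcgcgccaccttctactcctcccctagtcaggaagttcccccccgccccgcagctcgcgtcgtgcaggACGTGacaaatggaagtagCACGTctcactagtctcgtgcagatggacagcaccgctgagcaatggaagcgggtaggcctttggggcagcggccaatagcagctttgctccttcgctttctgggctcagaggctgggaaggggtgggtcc
Pgam1: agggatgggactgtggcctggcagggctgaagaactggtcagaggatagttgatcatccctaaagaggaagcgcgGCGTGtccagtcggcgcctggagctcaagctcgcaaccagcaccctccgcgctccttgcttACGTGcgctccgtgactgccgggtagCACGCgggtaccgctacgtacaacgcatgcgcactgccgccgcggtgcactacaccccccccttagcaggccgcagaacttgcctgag
Pfkp: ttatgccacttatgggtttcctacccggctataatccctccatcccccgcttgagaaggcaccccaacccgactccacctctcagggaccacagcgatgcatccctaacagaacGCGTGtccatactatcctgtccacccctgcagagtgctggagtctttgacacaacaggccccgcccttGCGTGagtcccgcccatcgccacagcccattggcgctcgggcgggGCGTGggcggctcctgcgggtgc
Gpi1: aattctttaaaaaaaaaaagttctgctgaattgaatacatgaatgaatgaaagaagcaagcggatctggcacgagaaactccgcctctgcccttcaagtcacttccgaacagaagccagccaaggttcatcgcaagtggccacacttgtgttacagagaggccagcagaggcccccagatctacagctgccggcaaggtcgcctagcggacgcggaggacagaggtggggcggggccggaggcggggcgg

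At the entry to the pathway, Gpi1 (XLOC_018949, chr7:34201327-34230305, GRCm38) stood at 126, 161 and 125 FPKM in the DMSO libraries and at 116, 119 and 97.2 FPKM in the oligomycin libraries. The groups did not overlap, but the gap between the lowest DMSO and the highest oligomycin library was small beside the spread within DMSO. The means were 138 ± 20.5 and 111 ± 12.0 FPKM (SD, n = 3), and the log2 change of -0.30 (SE 0.15, 95% interval -0.64 to 0.03) did not pass the limma test (adjusted p = 0.148). The interval includes no change as well as a fall of 0.64, so it does not show that Gpi1 was unaffected.

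Both main phosphofructokinase genes fell. Pfkl (XLOC_002065, chr10:77986949-78009796), the liver-type subunit, stood at 117, 155 and 122 FPKM with DMSO and at 75.1, 63.9 and 62.9 FPKM with oligomycin. Its mean was 1.95-fold lower, and it fell by 0.95 on the log2 scale (SE 0.14, limma adjusted p = 0.00220). Pfkp (XLOC_005293, chr13:6548157-6648724), the platelet-type subunit, stood at 166, 200.4 and 142 FPKM with DMSO and at 91.7, 70.0 and 71.0 FPKM with oligomycin. That is a 2.18-fold lower mean, a fall by 1.11 (SE 0.17, adjusted p = 0.00196). For both subunits the highest oligomycin library lay well below the lowest DMSO library. The Pfkp row shares its locus with Pitrm1, a mitochondrial protease gene on the opposite strand, and the strand of the libraries is not given in the sources used here. The Pitrm1 row averaged 44.1 FPKM with DMSO and 41.1 with oligomycin (log2 change -0.11, adjusted p = 0.591).

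The aldolase genes differed widely in level and in the size of their fall. Aldoa (XLOC_019513, chr7:126795234-126800447), the main aldolase of muscle and of most other cells, was the most abundant member, at 1071, 1362 and 977 FPKM with DMSO and at 731, 525 and 491 FPKM with oligomycin. The groups stood apart, and the mean was 1.95-fold lower, a fall by 0.97 on the log2 scale (SE 0.21, limma adjusted p = 0.00931). Aldoc (XLOC_002819, chr11:78324198-78326760), the brain-type aldolase, had the lowest mean of the members in both groups, though its DMSO range overlapped that of Pgam1. It stood at 11.3, 13.5 and 6.73 FPKM with DMSO. With oligomycin it stood at 0.807, 0.692 and 1.03 FPKM, so that even the highest oligomycin library held less than the lowest DMSO library by a wide margin. Its mean was 12.5-fold lower, and it fell by 2.60 (SE 0.23, adjusted p = 0.000149), the 34th largest fall among the 9986 genes. At levels near 1 FPKM the pseudocount sets much of this value: the log2 change was -3.45 with a pseudocount of 0.1 and -1.38 with a pseudocount of 5.

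Tpi1 (XLOC_017425, chr6:124808941-124814296), triosephosphate isomerase, combined a high level with a steep fall. It stood at 683, 891 and 656 FPKM with DMSO and at 299, 185 and 218 FPKM with oligomycin, with no overlap. The mean was 3.18-fold lower, a fall by 1.68 (SE 0.21, limma adjusted p = 0.000770), which ranked 43rd among the 735 genes with at least 100 FPKM in the DMSO mean. In that ranking the other members at this level came at 79 (Pfkp), 85 (Eno1), 97 (Aldoa), 100 (Pfkl) and 357 (Gpi1).

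In the lower part of the pathway all 3 measured genes fell. Pgk1 (XLOC_022427, chrX:106187124-106203699), phosphoglycerate kinase, stood at 102, 98.6 and 80.2 FPKM with DMSO and at 48.5, 26.9 and 40.3 FPKM with oligomycin. It fell by 1.29 (SE 0.21, limma adjusted p = 0.00275), with a 2.43-fold lower mean. Pgam1 (XLOC_010105, chr19:41911871-41918665), phosphoglycerate mutase, stood at 12.6, 13.3 and 11.7 FPKM with DMSO and at 6.19, 3.94 and 4.55 FPKM with oligomycin, a 2.56-fold lower mean and a fall by 1.22 (SE 0.16, adjusted p = 0.000965). Eno1 (XLOC_014254, chr4:150237197-150248873), enolase, stood at 190, 229 and 182 FPKM with DMSO and at 116, 86.9 and 86.7 FPKM with oligomycin. It fell by 1.05 (SE 0.16, adjusted p = 0.00194), with a 2.08-fold lower mean. None of these genes showed overlap between the groups. Some members have near-identical copies elsewhere in the genome, and how the authors assigned reads with several matches is not given in the sources used here. At 95% identity over at least 500 aligned bases, the longest GENCODE M21 coding transcript matched 3 other genes for Eno1 (the protein-coding copy Eno1b among them), 2 processed pseudogenes for Pgk1, 1 for Pgam1 and 1 for Gpi1, and 72 other genes for Gapdh. None of these copies has a row of its own. Pgam1 had 12.5 FPKM in the DMSO mean, against 93.6 FPKM for Pgk1 and 200.4 FPKM for Eno1, its neighbours in the pathway, and the part of the copies in these levels was not tested.

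FPKM are divided by length, so the members' levels are set side by side here. Length does not settle their order or sum, because the part of the near-identical copies of Gpi1, Pgk1, Pgam1 and Eno1 was not tested. In the DMSO libraries the order of the mean levels was Aldoa (1137 FPKM), Tpi1 (743), Eno1 (200.4), Pfkp (169), Gpi1 (138), Pfkl (131), Pgk1 (93.6), Pgam1 (12.5) and Aldoc (10.5). The ranges of neighbours from Eno1 to Pfkl overlapped, as did those of Pgam1 and Aldoc, so their order is not settled by 3 libraries. With oligomycin Gpi1 (111 FPKM) moved ahead of Eno1 (96.4) and Pfkp (77.6) and stayed ahead of Pfkl (67.3). Its oligomycin range of 97.2 to 119 FPKM overlapped that of Eno1 (86.7 to 116). It lay above those of Pfkp (70.0 to 91.7) and Pfkl (62.9 to 75.1). The ranges of direct neighbours from Gpi1 to Pfkl again overlapped. Summed over the 9 genes, the level was 2479, 3124 and 2303 FPKM with DMSO and 1484, 1082 and 1072 FPKM with oligomycin. This sum took 0.636% ± 0.0845 (SD, n = 3) of the FPKM outside the small RNA rows with DMSO and 0.316% ± 0.0490 with oligomycin. DMSO replicate 2 was highest in its group for 8 of 9 members and DMSO replicate 3 lowest for 8. Oligomycin replicate 1 was highest in its group for 7, while the lowest there was replicate 2 for 5 members and replicate 3 for 4. The mean log2 distance of the members from the DMSO mean was -1.004, -1.41 and -1.31 in oligomycin replicates 1, 2 and 3.

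To see which enzymes departed from the rest of the pathway, each member was set against the mean log2(FPKM + 1) of the other 8 in the same library. Gpi1 moved up, from 0.16 ± 0.09 (SD, n = 3) above the others with DMSO to 1.22 ± 0.27 above them with oligomycin. Its share of the summed level went from 5.23% ± 0.175 to 9.31% ± 1.61. Aldoc moved from -3.92 ± 0.32 to -5.45 ± 0.27 and Tpi1 from 2.89 ± 0.08 to 2.40 ± 0.16, so that the share of Tpi1 went from 28.2% ± 0.541 to 19.2% ± 1.80 of the sum. For these 3 genes the groups did not overlap. Pgk1 (-0.45 ± 0.17 and -0.51 ± 0.29) and Pgam1 (-3.60 ± 0.14 and -3.57 ± 0.08) kept overlapping positions. Pfkl, Pfkp, Aldoa and Eno1 were higher relative to the others with oligomycin by 0.33, 0.14, 0.30 and 0.21, without overlap. These sizes changed with the pseudocount, and the low gene Aldoc enters the mean for every other member. With a pseudocount of 5 the differences of Gpi1 (0.84), Aldoc (-0.39) and Tpi1 (-0.70) were still without overlap. Those of Pfkl (0.147), Aldoa (0.0805), Eno1 (0.017) and Pfkp (-0.0416) then overlapped, and that of Pgam1 (0.233) no longer did. Each such difference also contains the movement of the other 8, and with 3 libraries against 3 an exact permutation test cannot go below 0.1, so none of them can pass a threshold of 0.05.

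**Figure D2:**
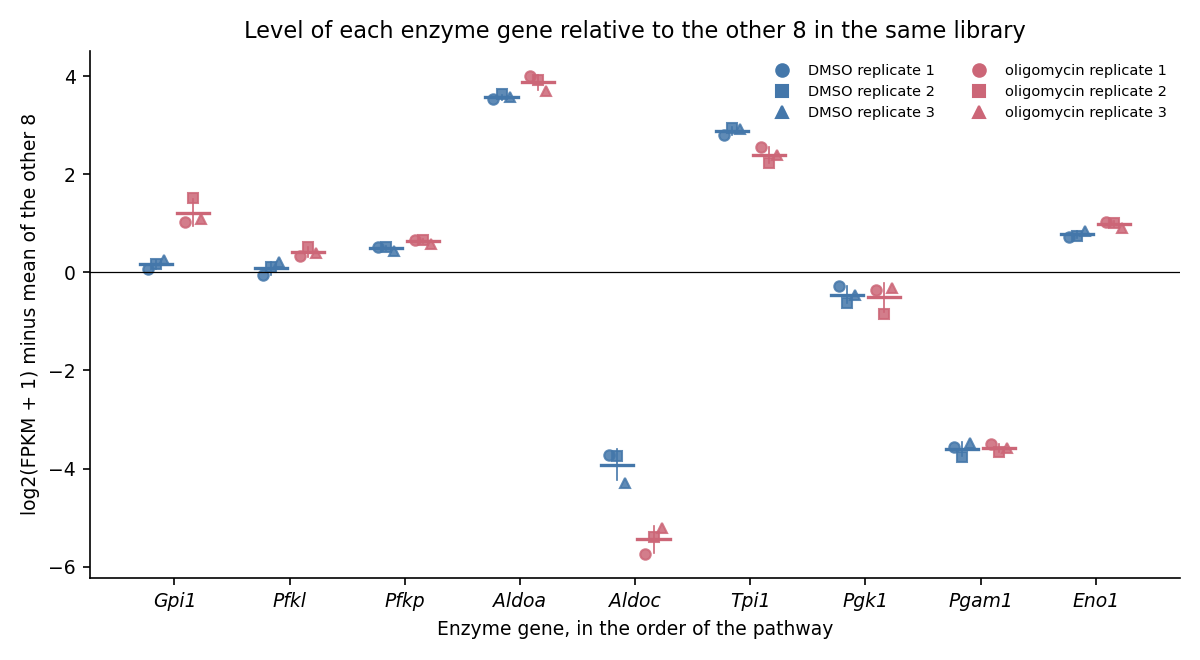
Level of each enzyme gene relative to the mean of the other 8 in the same library, in log2(FPKM + 1); points are libraries, horizontal lines group means, vertical lines ± 1 SD (n = 3). Gpi1 moved up by 1.05 with oligomycin, while Aldoc and Tpi1 moved down by 1.53 and 0.49.

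Isoforms that serve a single step were compared by their ratio within a library, with a 2-sided exact permutation test over 6 pairs whose smallest possible p is 0.1. Aldoa exceeded Aldoc 94.9-fold, 101-fold and 145-fold in the DMSO libraries and 906-fold, 759-fold and 477-fold in the oligomycin libraries. The log2 ratio of Aldoc to Aldoa was thus lower by 2.63 with oligomycin, without overlap (exact p = 0.1, adjusted p = 0.2 over the 6 pairs). With a pseudocount of 5 added to each level it was lower by only 0.42, with overlap (exact p = 0.2). The ratio of Pfkp to Pfkl was 0.36 ± 0.15 (SD, n = 3) on the log2 scale with DMSO and 0.20 ± 0.08 with oligomycin, with overlapping libraries (exact p = 0.2, adjusted p = 0.3). The muscle-type subunit gene Pfkm fell as well, from 9.27 ± 2.42 to 4.22 ± 0.735 FPKM (limma adjusted p = 0.00840). Its log2 ratio to Pfkl was -3.85 ± 0.44 and -4.00 ± 0.37 (exact p = 0.7). Eno3, the muscle-type enolase, averaged 6.35 ± 0.635 FPKM with DMSO and 5.76 ± 0.478 with oligomycin (log2 change -0.12, limma adjusted p = 0.508). The log2 ratio of Eno3 to Eno1 was therefore higher by 0.92 with oligomycin, without overlap (exact p = 0.1, adjusted p = 0.2). Outside the core, the hexokinase ratio Hk2 to Hk1 overlapped (exact p = 0.9) and that of Ldhb to Ldha was higher by 1.66 without overlap (exact p = 0.1).

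**Figure D3:**
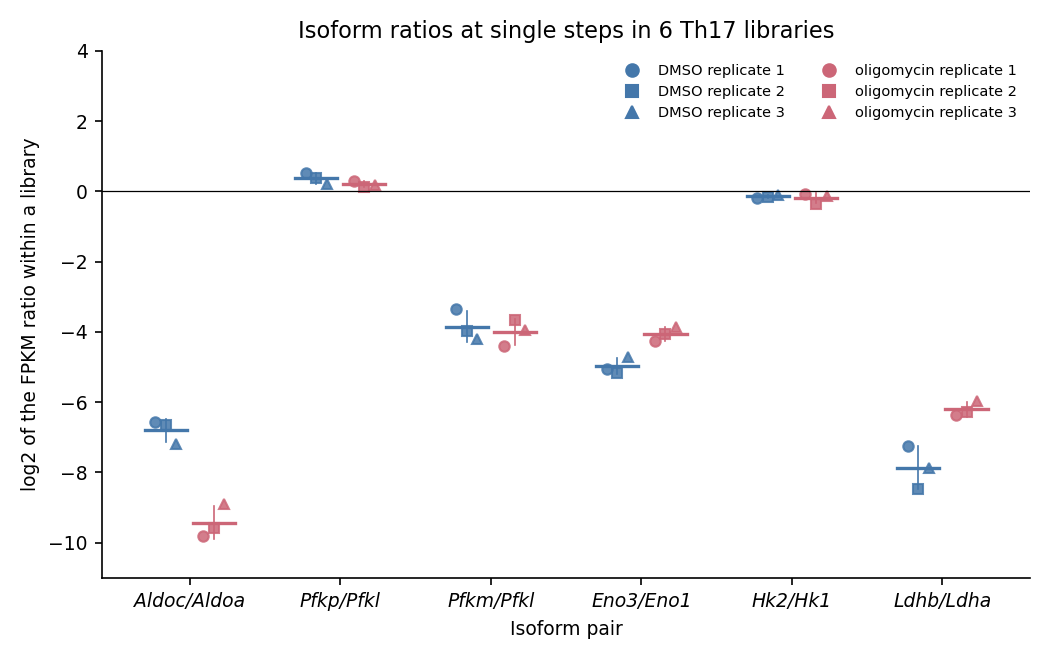
Log2 of the FPKM ratio of isoform pairs within each library; points are libraries, horizontal lines group means, vertical lines ± 1 SD (n = 3). Aldoc/Aldoa lies lower with oligomycin by 2.63 and Eno3/Eno1 and Ldhb/Ldha higher by 0.92 and 1.66, while the phosphofructokinase and hexokinase pairs overlap.

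Most of the measured genes for the steps on either side of the core fell as well. Of 6 tested genes for the first and last steps and lactate formation, 4 fell and 0 rose, with a median log2 change of -0.88. This count and that of the transporters below stand beside 16.1% of all tested genes called lower and 14% higher. Hk1 and Hk2, hexokinases that trap glucose, fell by 0.91 and 0.95 (limma adjusted p = 0.00534 and 0.00585), Pkm, pyruvate kinase, by 0.85 (0.00959) and Ldha, lactate dehydrogenase A, by 1.09 (0.00354). Ldhb, the subunit common in heart, stood at 6.09 ± 2.47 and 8.63 ± 1.54 FPKM (adjusted p = 0.159, and 0.0325 without DMSO replicate 1), and Adpgk, an ADP-dependent glucokinase, at 25.1 ± 3.45 and 31.5 ± 1.97 FPKM, each oligomycin library above each DMSO library (adjusted p = 0.0925, and 0.0377 with libraries scaled to the same FPKM sum without small RNA rows). Of 7 tested transporter genes 5 fell and 0 rose, with a median of -1.18. The steepest were Slc16a3, a lactate exporter (-2.50, adjusted p = 0.000194), Slc2a3, a glucose transporter (-1.98, 7.79e-05), and Slc2a6 (-1.84, 0.000666). Slc2a6 stood at 0.406, 0.875 and 1.17 FPKM with oligomycin, near the pseudocount of 1, and passed the filter mainly through its DMSO values. With a filter of at least 5 FPKM in at least 3 libraries it was not tested. Slc2a1, the main glucose transporter of activated T cells, fell by 1.18 (0.000779) and Bsg, the chaperone of the lactate transporters, by 1.12 (0.00146). Slc16a1, a further monocarboxylate transporter, stood at 79.6 ± 3.28 and 78.1 ± 23.6 FPKM (adjusted p = 0.808), and Slc2a8 at 2.73 ± 0.365 and 2.64 ± 0.601 FPKM (0.864).

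**Figure D4:**
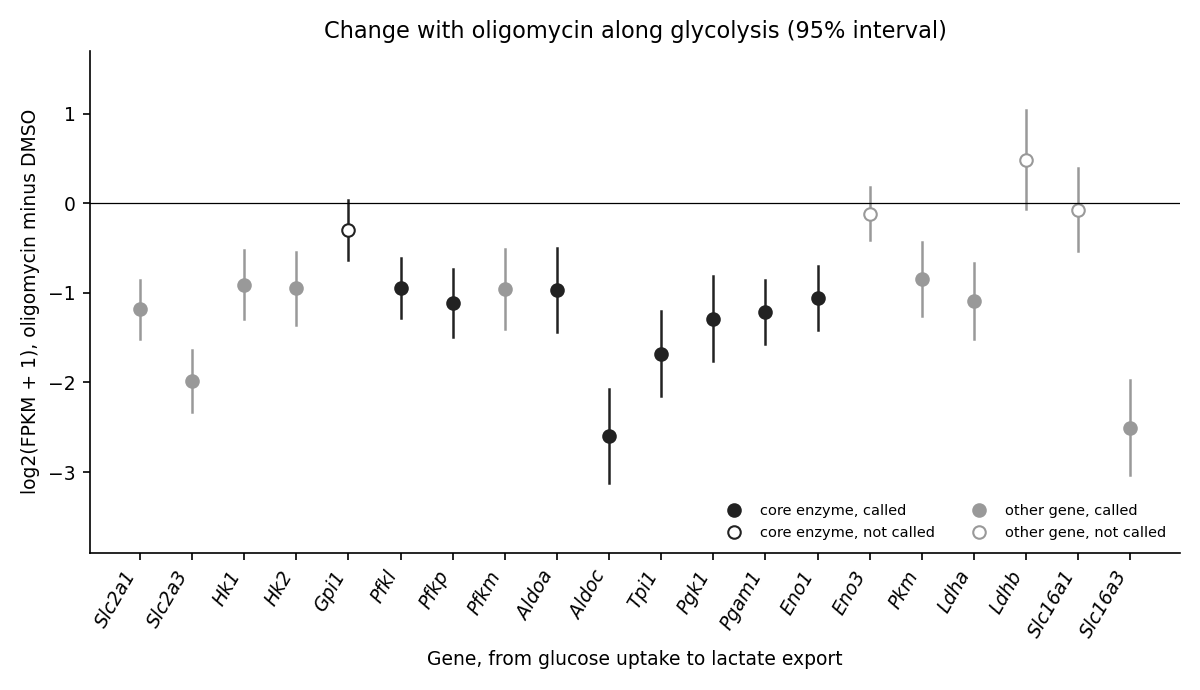
Change in log2(FPKM + 1), oligomycin minus DMSO, for genes ordered from glucose uptake to lactate export; points are limma estimates from 3 libraries a group, vertical lines 95% intervals, filled points passed an adjusted p of 0.05. The called genes lie between -2.60 (Aldoc) and -0.85 (Pkm), and the open points are Gpi1 (-0.30), Eno3 (-0.12), Ldhb (0.49) and Slc16a1 (-0.07).

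Among genes that tune phosphofructokinase or lead out of the pathway, calls went in both directions. Of 4 tested genes for the bifunctional enzymes that make or remove fructose 2,6-bisphosphate, an activator of phosphofructokinase, 0 fell and 1 rose. Pfkfb2 rose from 1.67 ± 0.228 to 3.20 ± 0.686 FPKM (limma adjusted p = 0.0267), a call kept without oligomycin replicate 1 and lost when another library was left out (adjusted p from 0.0616 to 0.0974). Pfkfb1 had a log2 change of -0.48 (0.101), Pfkfb3 of -0.39 (0.133) and Pfkfb4 of -0.13 (0.696). Among 12 genes of side branches 2 fell and 2 rose, shares near the 16.1% and 14% of all tested genes, with a median of 0.03. Pgm2, a phosphoglucomutase, and Pgp, a phosphatase that clears side products of glycolysis, fell by 1.43 and 1.29 (adjusted p = 0.000483 and 0.00112). Phgdh, which takes 3-phosphoglycerate into serine synthesis, rose by 0.52 (0.0235), a call that leaving out DMSO replicate 2 (0.0754) or DMSO replicate 3 (0.0922) removed. Bpgm, which makes 2,3-bisphosphoglycerate from a glycolytic intermediate, rose from 11.2 ± 0.770 to 14.4 ± 0.799 FPKM (0.0480), a call lost on leaving out any 1 of the 6 libraries (0.0745 to 0.169) or the intensity trend (0.0565). In gluconeogenesis 3 of 8 genes were tested. Pck2, mitochondrial phosphoenolpyruvate carboxykinase, rose by 1.01 (0.00492), Pcx, pyruvate carboxylase, fell by 1.65 (0.000868) and G6pc3, a glucose-6-phosphatase, had a log2 change of -0.38 (0.0606; called without oligomycin replicate 2, at 0.0172).

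The neighbouring carbon pathways had smaller medians. In the pentose phosphate pathway 4 of 10 tested genes fell and 0 rose, with a median log2 change of -0.21, and in the TCA cycle 6 of 20 fell and 0 rose, with a median of -0.29. Both counts stand beside 16.1% of all tested genes called lower and 14% higher. The pentose phosphate genes that fell were Pgd (-0.92, limma adjusted p = 0.000926), G6pdx (-0.70, 0.0109), Tkt, read from a row joined with Mir3076 (-0.55, 0.0181), and Taldo1 (-0.35, 0.0493). Tkt was not called without DMSO replicate 2 (0.0686) or oligomycin replicate 3 (0.0678), and Taldo1 lost its call in 11 of 15 alternatives (adjusted p from 0.0508 to 0.250). These took in leaving out any library but oligomycin replicate 1 (0.0989 to 0.152), libraries scaled to the same FPKM sum (-0.23, 0.116) and quantile normalization, where Taldo1 changed by -0.16 (0.250). Of the TCA genes, Aco1, the cytosolic aconitase, changed by -0.60 (0.00819), Mdh1, the cytosolic malate dehydrogenase, by -0.55 (0.0112) and Sucla2 by -0.45 (0.0160), the last not called without DMSO replicate 1 (0.0649) or DMSO replicate 3 (0.0674). The difference between these lists and the core enzymes was not tested.

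Among 13 tested genes for transcription factors of glycolytic genes and their regulators, 3 fell and 3 rose, with a median of -0.05. The shares over all tested genes were 16.1% called lower and 14% higher. Hif1a, the oxygen-regulated subunit of HIF-1, stood at 369, 256 and 276 FPKM with DMSO and at 253, 124 and 195 FPKM with oligomycin. These groups were separated only narrowly, and the log2 change of -0.69 (SE 0.26) did not pass the limma test (adjusted p = 0.0725), although it did without oligomycin replicate 1 (-0.92, adjusted p = 0.0199). Egln3 and Egln1, hydroxylases that mark HIF for degradation and are themselves HIF targets, fell by 1.45 and 0.68 (adjusted p = 0.00370 and 0.00360). Hif1an, an asparagine hydroxylase that restrains HIF, rose by 0.60 (0.0271), a call lost on leaving out any 1 of the DMSO libraries or oligomycin replicate 2 (0.0564 to 0.0784). Myc stood at 56.0 ± 8.19 and 49.7 ± 8.14 FPKM (SD, n = 3; limma adjusted p = 0.435). Txnip, a brake on glucose uptake whose gene responds to sugar phosphates through MondoA, stood at 29.3, 19.8 and 21.0 FPKM with DMSO and at 33.6, 57.5 and 49.7 FPKM with oligomycin. Each oligomycin library was above each DMSO library, as for 23.1% of all tested genes, and Txnip rose by 0.96 (adjusted p = 0.0119).

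Pgk1 and Gapdh often serve as reference genes for expression assays. Of 16 tested genes on a fixed list of common reference genes, Pgk1 among them, 5 fell, 4 rose and 7 were not called. Over all tested genes the shares called lower and higher were 16.1% and 14%. Besides Pgk1, the smallest adjusted p-values belonged to Rps18, a ribosomal protein gene that rose by 0.99 (limma adjusted p = 0.00122), Tfrc, the transferrin receptor gene, which fell by 1.11 (0.00691), and B2m, the light chain of MHC class I, which rose by 0.73 (0.00817).

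The genes whose profile over the 6 libraries lay nearest to the mean of the members were sought among 8152 other genes that averaged at least 5 FPKM in either group. Likeness was the root mean square difference of log2(FPKM + 1), centred on the 6 libraries. The 5 nearest were Galk1 (0.0548), which phosphorylates galactose, Higd1a (0.0594), a mitochondrial protein induced by hypoxia, Arhgdig (0.0604), Bsg (0.0751) and Hist4h4 (0.0791), a histone H4 gene. By the same measure Pfkp (0.0709) and Pgam1 (0.0851) lay nearest to the mean among the members, and Gpi1 (0.491) and Aldoc (0.711) farthest. Galk1, for example, stood at 202, 231 and 173 FPKM with DMSO and at 109, 74.2 and 84.3 FPKM with oligomycin. The genes were picked for likeness to a profile that itself differs between the groups. That their groups stand apart thus follows from the choice and is no separate result.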

How the data were processed

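The deposited values are FPKM, made by the authors; per the submitters' processing notes the build was GRCm38 (mm10) and the tools Cuffdiff 2.2.1.3, Cuffnorm 2.2.1.1, Cufflinks 2.2.1.0 and TopHat2 2.1.0. For annotation, scaling between libraries, strand and reads with several matches, the procedure is not given in the sources used here. Per the file headers, columns carry a group and a number that is in no sample title, so each was mapped to its group only. The low FPKM of 2 libraries shared no common ratio (at most 3.33% of 300 rows lay within 1 narrow band), so whole reads could not be recovered, depth is unknown and no counting interval is given.

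From these values, log2(FPKM + 1) was tested with limma 3.58.1 (R 4.3.3) with an intensity trend and a model of the group alone, over 9986 of 10041 rows with at least 1 FPKM in at least 3 libraries, with Benjamini-Hochberg adjustment over all of them; the procedure was tested on simulated data. Ratios of single values used exact 2-sided permutation tests. Row starts are printed counted from 1. Small RNA rows (169) are rows that name a microRNA, snoRNA or similar gene. Transcript copies were found with BLASTN 2.17.0 in GENCODE M21, and promoter sequences are RefSeq's (GRCm38.p6; all 10 members matched by symbol). The genes named are the members, up to 4 genes with the lowest adjusted p of each fixed list, isoforms in a ratio, tested transporters and phosphofructokinase regulators, Hif1a, Myc, Txnip and the 5 nearest profiles; Adpgk, the Th17 and T cell markers, Cd8b1, Klrd1 and Pitrm1 were named in addition, after their values were seen, and some genes are not reported here. The members and lists were chosen with earlier results of these data known. Alternatives were other pseudocounts, filters, scalings, no trend, leaving out rows with a shared locus or several names, and leaving out each library.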

Additional observations from a re-analysis of the deposited data

How the results depend on the processing

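The number of members that fell was 8 of 9 under every alternative, except without rows that share a locus or name several genes, where Pfkp was left out and 7 of 8 fell. No member rose in any of them, each of the 8 kept its call wherever it was tested, and Gpi1 was called in none (log2 change from -0.37 to -0.10, adjusted p from 0.115 to 0.596). The largest adjusted p of a called member was 0.0401, for Aldoa. Scaling each library to the same FPKM sum without small RNA rows moved the median of all tested genes from -0.00 to 0.10 and the share of lower genes among those called from 53.4% to 39.7%, with a member median of -1.0004 there. Leaving out 1 library at a time gave between 1769 and 3248 changed genes, against 3013 with all libraries; without DMSO replicate 1 there were 1887 and without DMSO replicate 3 there were 1769, fits with fewer samples. The summed level of the members kept its direction in all 9 of its alternatives, with log2 changes from -1.29 to -0.94. Relative to the other members, the sign of the difference turned for Pfkp with a pseudocount of 5 (-0.0416), for Pgk1 with a pseudocount of 0.1 (0.0537) and for Pgam1 with a pseudocount of 0.1 (-0.0046), and leaving out single libraries gave values from -0.151 to 0.114 for Pgk1 (0.0348 without DMSO replicate 1, 0.114 without oligomycin replicate 2) and from -0.0505 to 0.0899 for Pgam1 (-0.0505 without DMSO replicate 2, -0.0094 without oligomycin replicate 1). The log2 ratio of Pfkm to Pfkl turned with a pseudocount of 5 (0.29) and, over a range of -0.332 to 0.0908, when oligomycin replicate 1 (0.04) or DMSO replicate 1 (0.0908) was left out. The Hk2 to Hk1 ratio ranged from -0.105 to 0.0405 and turned without oligomycin replicate 2 (0.0405). The cause of these turns was not tested. Of 42 named genes outside the members 31 were called with all libraries, and 7 of these (Bpgm, Hif1an, Pfkfb2, Phgdh, Sucla2, Taldo1 and Tkt) lost the call in at least 1 of 15 alternatives. The 42 leave out the cell type markers (Il17a, Il23r and Cd28 among them), Pitrm1, Galk1, Higd1a, Arhgdig and Hist4h4. How the calls of those genes depend on the alternatives is not reported here. Depth is unknown, so how far it limits low values such as those of Aldoc cannot be given. No paired analysis was possible because the numbers 1 to 3 in the column names do not occur in the sample titles, whose numbers are shared between the groups.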
